A study of Mus musculus with 27 samples.

Results

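The comparison described here is that of 3 male C57BL/6 mice given 30 µg/kg TCDD, the highest dose of the study, with 3 mice given sesame oil vehicle, and it takes in all genes of the distal ileal epithelium. The 6 mice were chosen by their labelled treatment and dose from the 27 mice of the study, which also gave 3 mice each to 7 lower doses, the lowest of them 0.01 µg/kg. Both groups were gavaged at 4 d intervals over 28 d and collected at postnatal day 56. Epithelium was scraped from the ileum, so each sample is a mixture of cell types, and fewer cells of a type cannot be told apart from less RNA per cell. Mice were housed several to a cage. The cage of each mouse is not given in the sources used here, so the p-values measure the spread between mice and do not separate cage from dose.

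TCDD is a persistent ligand of the aryl hydrocarbon receptor (AhR), which sits in the cytosol with HSP90 and other chaperones until a ligand binds. The receptor then enters the nucleus, pairs with ARNT and binds DNA at dioxin response elements, whose core is the motif GCGTG. Its best known targets are the CYP1 monooxygenases, and it also induces AHRR, which represses the receptor. In the intestine AhR is also known for sensing dietary and microbial indoles and for its part in barrier immunity.

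The libraries were close in depth, with 13.14 to 14.44 M counts on genes in vehicle mice (mice 2, 3 and 4) and 13.63 to 14.63 M in treated mice (mice 65, 67 and 68). Levels are given as CPM, counts scaled to a common library size with normalisation factors. Enterocyte markers were present in all 6 mice. The ileal genes *Fabp6*, *Slc10a2* and *Cubn* and 5 general enterocyte or epithelial genes summed to 10540 to 12500 CPM in vehicle mice and 9511 to 18000 CPM in treated mice. The sum is therefore not a measure of ileal identity alone. Mouse 65 stood apart from the other treated mice. Its 9 smooth muscle genes summed to 659.9 CPM against 218.4 to 326.4 CPM in vehicle mice and 266.3 and 241.6 CPM in mice 67 and 68, and transcripts of the mitochondrial genome took 3.15% of its counts against 1.87 to 1.93% in vehicle mice. Results that rest on mouse 65 are therefore also given without it. Counted in the order of mouse numbers, the index sequences of the libraries were in their first use in all 3 vehicle mice and in their second use in all 3 treated mice, so index use and treatment cannot be told apart between these groups.

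At 30 µg/kg, the AhR targets, the clock output genes, the sugar and amino acid transporters and the P450s were, in part of their members, higher than in vehicle mice. The dual oxidase genes were lower, as were part of the immunoglobulin genes, cell cycle genes and clock activators. Of 16741 genes tested, 908 (5.42%) were called higher and 666 (3.98%) lower, where a gene is called when its fold change is 1.5 or more and its Benjamini-Hochberg adjusted p, from the quasi-likelihood test of edgeR, does not exceed 0.05. The change was at least 2-fold for 459 of the genes called higher and 264 of those called lower, and at least 4-fold for 98 and 91. Protein-coding genes made up 1340 of the 1574 called. All 3 treated mice lay above all vehicle mice for 2301 of all genes tested (13.7%) and below them for 2234 (13.3%), and among the called genes this held for 773 of those called higher and 602 of those called lower. An exact permutation test of 3 mice against 3 cannot give a p below 0.1, and the calls rest on the spread estimated over all 27 mice. The split between directions depended on the scaling. With TMM factors, which allow for a few abundant genes taking a larger share of the reads, 57.7% of called genes were higher, while scaling by library size alone gave 604 higher and 1048 lower (36.6% higher) and moved the median log2 fold change of all genes from 0.02 to -0.11.

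**Figure D1:**
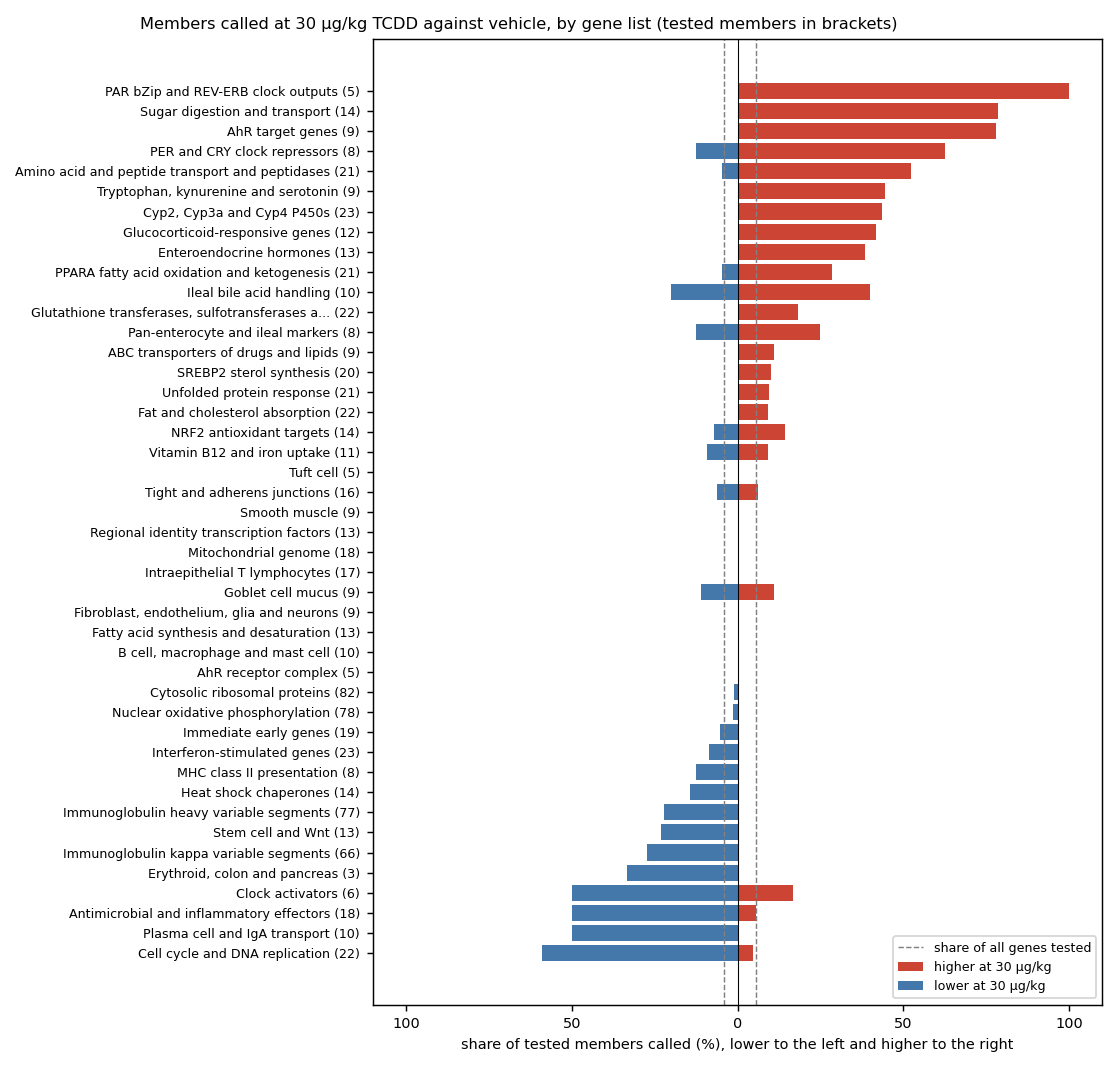
Share of the tested members of 44 gene lists called higher (right) or lower (left) at 30 µg/kg TCDD against vehicle, with the number of tested members in brackets and the share over all 16741 genes as dashed lines. Clock outputs, sugar genes and AhR targets reach furthest to the right, and cell cycle genes, plasma cell genes, antimicrobial effectors and clock activators furthest to the left.

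The start sites of 4 AhR targets are shown because they hold the core to which the receptor complex binds and because their transcripts spanned the range of responses, from the largest rise of any gene to a modest one. Each window runs from 250 bases before to 50 bases after the RefSeq start in GRCm38.p6, read in the direction of the gene. The *Cyp1a1* start lies inside the longer span that the files' annotation gives this gene. Capitals mark the dioxin response element core GCGTG on either strand (CACGC where it lies on the other strand). *Cyp1a1* (chr9:57697363-57697662, + strand) has a single core with its first base at -54, *Cyp1b1* (chr17:79715012-79715311, - strand) has 1 at -76 and *Tiparp* (chr3:65528197-65528496, + strand) has 1 at -170, counting backwards from the start. *Ahrr* (chr13:74292282-74292581, - strand) has 3, at -107, -82 and -27.
Cyp1a1: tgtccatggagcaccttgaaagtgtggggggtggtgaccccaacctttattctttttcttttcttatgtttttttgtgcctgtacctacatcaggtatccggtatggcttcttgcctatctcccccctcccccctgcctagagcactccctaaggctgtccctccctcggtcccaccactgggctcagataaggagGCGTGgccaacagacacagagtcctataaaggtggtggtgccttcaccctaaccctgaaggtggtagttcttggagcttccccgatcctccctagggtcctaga
Cyp1b1: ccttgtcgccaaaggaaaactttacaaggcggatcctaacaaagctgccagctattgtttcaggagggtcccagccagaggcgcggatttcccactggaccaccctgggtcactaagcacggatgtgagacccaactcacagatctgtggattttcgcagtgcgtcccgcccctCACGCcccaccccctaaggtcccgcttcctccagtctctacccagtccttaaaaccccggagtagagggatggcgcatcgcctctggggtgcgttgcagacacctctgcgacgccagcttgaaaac
Ahrr: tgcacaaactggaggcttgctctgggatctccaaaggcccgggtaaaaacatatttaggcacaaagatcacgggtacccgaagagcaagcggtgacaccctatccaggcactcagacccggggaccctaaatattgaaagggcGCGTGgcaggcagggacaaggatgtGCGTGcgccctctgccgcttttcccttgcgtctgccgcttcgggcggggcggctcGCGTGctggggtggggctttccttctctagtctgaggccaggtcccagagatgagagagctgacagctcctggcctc
Tiparp: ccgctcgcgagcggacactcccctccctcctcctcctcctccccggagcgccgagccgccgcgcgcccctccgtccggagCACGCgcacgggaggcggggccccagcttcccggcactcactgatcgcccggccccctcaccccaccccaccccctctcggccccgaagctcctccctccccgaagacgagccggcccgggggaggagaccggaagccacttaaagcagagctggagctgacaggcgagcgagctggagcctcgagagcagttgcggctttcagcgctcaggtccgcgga
The 5-base core is common. Of 27025 genes with such a window, 9500 (35.2%) hold it on either strand, as do 53.2% of the 11357 tested genes that have a window. A match therefore describes the sequence and does not show that the receptor binds there, which was not tested here. The share among called genes was not compared, because fewer than 80% of them could be matched to a window. The windows of the AhR targets *Ugt1a6a* and *Nqo1* do not hold it.

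Of the 9 AhR targets that were tested, 7 were called higher and 0 lower (median log2 fold change 1.63 against 0.02 over all genes). *Cyp1a1* (ENSMUSG00000032315, chromosome 9 of GRCm38, 57687928 to 57703824), the monooxygenase that metabolises polycyclic ligands of the receptor, was almost absent from vehicle mice, at 0.211, 0 and 0.138 CPM in mice 2, 3 and 4. It reached 1062, 1881 and 2279 CPM in mice 65, 67 and 68. The vehicle libraries held 5 *Cyp1a1* counts in all, and the treated libraries 67134. Per effective library size the ratio was 14500, with a 95% interval of 6210 to 44600 that covers counting error only (exact Poisson interval of the 5 counts). The call had an adjusted p of 9.16e-12 (edgeR). No other transcript in the ileum changed by as large a factor in this fit.

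*Cyp1b1*, a related monooxygenase, rose from 2.39, 1.25 and 1.11 CPM in vehicle mice to 127, 81.9 and 99.0 CPM in treated mice (log2 fold change 6.01 ± 0.32 SE, adjusted p = 9.16e-12). *Ahrr*, the repressor of the receptor, rose from 2.53, 2.27 and 2.63 CPM to 88.9, 55.7 and 77.8 CPM (4.90 ± 0.16, adjusted p = 5e-16), which was the smallest adjusted p of any gene. For both genes mouse 65 had the highest level, unlike *Cyp1a1*, where it had the lowest. *Tiparp*, a poly-ADP-ribosyltransferase that also restrains the receptor, rose 1.82-fold, from 39.2 ± 3.70 to 71.3 ± 12.8 CPM (SD, n = 3), with no overlap between groups. *Cyp2s1* rose with a log2 fold change of 0.76 (adjusted p = 0.000473).

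*Ugt1a6a* and *Ugt1a6b*, glucuronosyltransferases of the phase II response, rose by log2 fold changes of 1.69 and 1.63. *Nqo1*, a quinone reductase that AhR and NRF2 both regulate in liver, was at 16.8, 18.6 and 18.6 CPM in vehicle mice and at 22.0, 16.1 and 18.6 CPM in treated mice (log2 fold change 0.07 ± 0.20 SE, adjusted p = 0.851), with the groups overlapping. *Ugdh*, which makes the cofactor for glucuronidation, had a log2 fold change of 0.24 and was not called. *Cyp1a2* and *Aldh3a1* had too few counts to be tested. The count of 7 was the same without any 1 of the 6 mice, and was 6 with index use in the fit. None of the 5 genes of the receptor complex was called by edgeR or DESeq2 (3 had an unadjusted p under 0.05), with *Ahr* at a log2 fold change of 0.30 (adjusted p = 0.102), *Arnt* at 0.18 and *Hsp90ab1* at -0.23.

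**Figure D2:**
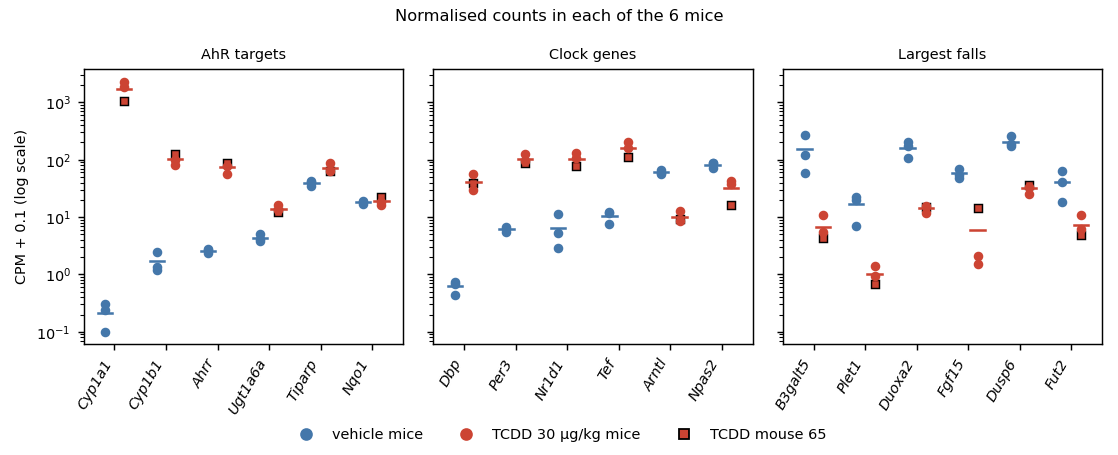
CPM plus 0.1 on a log axis for 18 genes in each of the 3 vehicle mice (blue) and 3 TCDD mice (red, mouse 65 as a square), with group means as lines. Cyp1a1 rises from at most 0.211 CPM to at least 1062 CPM, while the points of Nqo1 overlap.

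Other enzymes that metabolise foreign compounds rose in part. Among 22 glutathione transferases, sulfotransferases and glucuronosyltransferases, 4 were called higher and 0 lower (median log2 fold change 0.27 against 0.02 over all genes). The share called was 18.2%, against 9.4% of all genes tested. *Ugt1a7c* was uniform within each group, at 32.4, 35.2 and 32.9 CPM in vehicle mice and 120.5, 124 and 122 CPM in treated mice (1.86 ± 0.13 SE, adjusted p = 6e-10). *Gsta4*, which detoxifies lipid aldehydes, rose 2.27-fold. *Ugt1a1*, the bilirubin conjugating enzyme, rose by 0.62 on the log2 scale, a call that was lost without mouse 4, 67 or 68, and *Sult1a1* rose by 0.84, a call kept only without mouse 68. The count was 2 with index use in the fit, under scaling by library size, with the 6 mice alone, and without mouse 4 or 67. The *Ugt1a* genes share their last exons, and how the counting divided reads between them is not stated, so their separate levels are uncertain.

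Among 23 genes of the *Cyp2*, *Cyp3a* and *Cyp4* families with their reductase and nuclear receptors, 10 were called higher and 0 lower (median 0.81). *Cyp2u1*, a fatty acid hydroxylase, rose from 24.5, 28.5 and 21.2 CPM to 91.0, 172 and 132 CPM, a 5.33-fold change. *Cyp2j6* rose from 51.1, 51.6 and 53.2 CPM to 84.6, 93.7 and 88.3 CPM, with little spread in either group. *Por*, the reductase that passes electrons to microsomal P450s, rose 1.98-fold. The summed level of mouse 65 over the list was 1786 CPM against 2028 to 2495 CPM in vehicle mice and 4582 and 3955 CPM in mice 67 and 68. *Cyp2b10*, a target of the receptor CAR, was at 7.31 CPM in mouse 65 and at 57.5 and 30.4 CPM in mice 67 and 68 (vehicle 2.84 to 7.92 CPM, adjusted p = 0.021, lost without mouse 2, 4 or 67). The count of called P450 genes ranged from 4 without mouse 4 or 67 to 14 without mouse 65, and was 5 with index use in the fit and 2 with the 6 mice alone.

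Of 14 NRF2 antioxidant targets, 2 were called higher and 1 lower (median -0.06). The share called was 21.4%, against 9.4% of all genes tested. *Gclc*, the catalytic subunit of glutathione synthesis, rose from 46.0 ± 1.45 to 84.3 ± 18.5 CPM, and *Nfe2l2*, which encodes NRF2 itself, rose 1.51-fold, a call lost without mouse 2 or 67. *Gsr*, which regenerates reduced glutathione, fell from 348 ± 55.2 to 202 ± 35.3 CPM (-0.79 ± 0.14 SE, adjusted p = 0.000618). The remaining 11, among them *Hmox1*, *Txnrd1* and *Srxn1*, were not called. With index use in the fit 1 was called higher and 0 lower.

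The genes of the circadian clock changed by large factors, with outputs and PER repressors high and *Arntl* low. The clock is a feedback loop in which BMAL1 (*Arntl*) with CLOCK or NPAS2 drives *Per*, *Cry*, *Nr1d1* and *Dbp*, whose products in turn repress or relay the signal. All 5 PAR bZip and REV-ERB genes were called higher (median log2 fold change 3.92), in every fit that left out 1 mouse. *Dbp* rose from 0.634, 0.587 and 0.346 CPM to 39.0, 55.8 and 29.5 CPM, a 78.4-fold change (6.29 ± 0.98 SE, adjusted p = 0.000126). *Nr1d1*, which encodes REV-ERBα, rose from 5.28, 11.4 and 2.77 CPM to 78.4, 129 and 107 CPM. *Tef*, *Nr1d2* and *Hlf* rose by 3.92, 3.39 and 3.01 on the log2 scale, and no treated mouse overlapped a vehicle mouse in any of the 5.

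Of 8 PER and CRY repressors, 5 were called higher and 1 lower. *Per3* rose from 5.98, 5.35 and 6.64 CPM to 86.2, 127 and 93.3 CPM (17.0-fold), *Per2* 6.70-fold and *Cry2* 5.66-fold. *Ciart*, a further repressor of BMAL1, rose 16.6-fold and *Per1* by 1.70 on the log2 scale, whereas *Cry1* fell by 1.17. Of 6 clock activators, 3 were called lower and 1 higher. *Arntl* fell from 56.7, 65.3 and 59.1 CPM to 9.02, 8.43 and 12.5 CPM, a 6.05-fold decrease, and *Npas2* fell 2.57-fold. *Nfil3*, listed with the activators although it represses clock outputs, fell 4.99-fold. *Clock* itself had a log2 fold change of 0.02 and was not called. With index use in the fit, the outputs gave 5 calls, the PER and CRY genes 4 higher and 1 lower, and the activators 1 lower.

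A score of *Arntl*, *Clock* and *Npas2* minus the repressors and outputs, in mean log2 CPM centred over the 27 mice, was between 1.63 and 1.83 for vehicle and between -2.52 and -1.90 for 30 µg/kg. It also lay below 0 in every mouse given 1 to 10 µg/kg and in 1 mouse at 0.01 µg/kg (-1.22), whose group mates reached up to 1.61. The light cycle was the same for all mice, and the hour at which each was collected is not given in the sources used here. With this score as a covariate, which follows dose closely, 12 genes were called, 11 higher and 1 lower. Besides *Cyp1a1*, *Cyp1b1*, *Ahrr* and *Ugt1a7c*, they were *Agpat3*, *Dgkh*, *Ildr1*, *Sytl2*, *Myo5c*, *Pigz*, *Gm609* and, lower, *Igkv3-5*, names taken after the values were seen. *Gm609* had not been called without the score. *Sytl2*, *Myo5c*, *Pigz*, *Gm609* and *Igkv3-5* each had an adjusted p of 0.0489 (edgeR), close to the limit. *Igkv3-5* had 0, 0 and 1 counts in mice 65, 67 and 68. *Dgkh*, a diacylglycerol kinase, was at 12.7, 10.6 and 12.3 CPM in vehicle mice and at 50.6, 52.4 and 51.6 CPM in treated mice. Its log2 fold change was 2.12 without and 2.07 with the score. The part of the clock genes' state in the other changes was not tested beyond this fit.

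**Figure D3:**
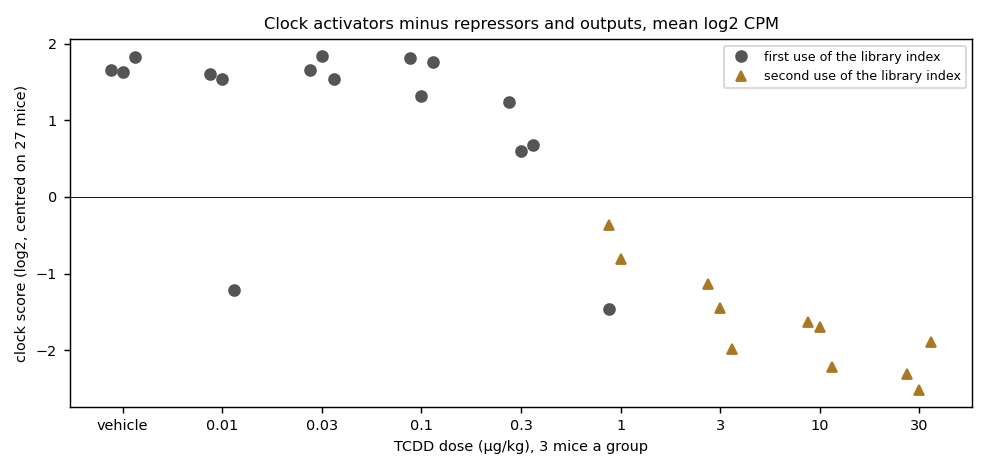
Clock score (mean log2 CPM of Arntl, Clock and Npas2 minus that of repressors and outputs, centred on 27 mice) for each mouse by TCDD dose, with symbols for first and second use of the library index. The vehicle mice lie at 1.63 to 1.83 and the mice at 30 µg/kg at -2.52 to -1.90.

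Of 12 genes that respond to glucocorticoids, 5 were called higher and 0 lower (median 0.49). *Fkbp5*, a chaperone of the glucocorticoid receptor, rose from 47.9, 61.3 and 65.8 CPM to 179.7, 336 and 299.5 CPM (4.66-fold, adjusted p = 4.04e-06). *Zbtb16*, a zinc finger regulator, rose from 3.03, 1.76 and 3.05 CPM to 11.5, 63.7 and 52.5 CPM (16.2-fold), and *Tsc22d3*, which encodes the leucine zipper GILZ, rose 3.53-fold. In each of these mouse 65 was the lowest treated mouse. *Sgk1*, a kinase that controls ion transport, reached 319 CPM in mouse 65 against 299 to 309 CPM in vehicle mice, and 951 and 1082 CPM in mice 67 and 68. Its call (1.36, adjusted p = 0.0292) was lost when any mouse other than 65 was left out. *Mt1*, *Mt2* and *Nr3c1*, the receptor itself, were not called, and with index use in the fit 2 of the 12 were.

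Sugar digestion, transport and metabolism shifted upwards, and 11 of 14 genes were called higher and 0 lower (median 1.41). *Slc2a2*, which encodes the basolateral glucose and fructose transporter GLUT2, was at 5.56, 13.2 and 6.58 CPM in vehicle mice and at 79.0, 415 and 231 CPM in treated mice, a 28.7-fold change (4.84 ± 0.76 SE, adjusted p = 0.00014). *Slc2a5*, the apical fructose transporter GLUT5, rose from 28.1, 28.0 and 23.7 CPM to 92.0, 478 and 296 CPM (10.9-fold). The groups did not overlap for either gene, and mouse 65 was the lowest treated mouse for both. *Slc5a1*, the sodium-coupled glucose transporter SGLT1, rose 2.33-fold from a level of 1420.2 ± 85.5 CPM, and *Sis*, sucrase-isomaltase, 2.64-fold from 2386 ± 426 CPM. *Slc5a4a*, a relative of SGLT1 outside the list, rose from 3.77 ± 1.77 to 46.7 ± 21.7 CPM.

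Members that act in gluconeogenesis rose as well, with *Pck1* at 3.31, *Fbp1* at 2.44 and *G6pc* at 2.25 on the log2 scale. *G6pc*, glucose-6-phosphatase, was at 17.3, 15.8 and 10.4 CPM in vehicle mice but at 4.51, 115 and 88.5 CPM in mice 65, 67 and 68, so mouse 65 lay below the vehicle mice. The call of *G6pc* was lost without mouse 4, 67 or 68. Across the list the summed level was 10230 to 11350 CPM in vehicle mice, 13190 CPM in mouse 65 and 31360 and 24610 CPM in mice 67 and 68. Between 8 genes (without mouse 67) and 12 genes (without mouse 65) of the list were called when a mouse was left out, and 5 with index use in the fit or with the 6 mice alone.

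Of 21 amino acid and peptide transporters and brush border peptidases, 11 were called higher and 1 lower (median 0.65). *Slc6a7*, a proline transporter, rose from 15.9, 14.8 and 15.4 CPM to 42.3, 39.8 and 36.6 CPM (1.36 ± 0.11 SE, adjusted p = 4.27e-08), and *Slc6a6*, the taurine transporter, from 311, 339 and 319.6 CPM to 580.2, 679 and 583 CPM. Mouse 65 was close to its group mates for both. Across the list, however, the summed level was 18370 to 20020 CPM in vehicle mice, 16940 CPM in mouse 65 and 36960 and 34400 CPM in mice 67 and 68. *Slc15a1*, the peptide transporter PEPT1, was in contrast at 595 CPM in mouse 65 and at 2252 and 1778 CPM in mice 67 and 68, against 397 to 559 CPM in vehicle mice. *Enpep*, a glutamyl aminopeptidase, rose 1.57-fold, a call lost without mouse 67 or 68. *Slc7a5*, a transporter of large neutral amino acids, fell by 0.92 (lost without mouse 4, 67 or 68). The number called higher was 4 without mouse 67 and 12 without mouse 65, and 4 with index use in the fit or with the 6 mice alone.

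**Figure D4:**
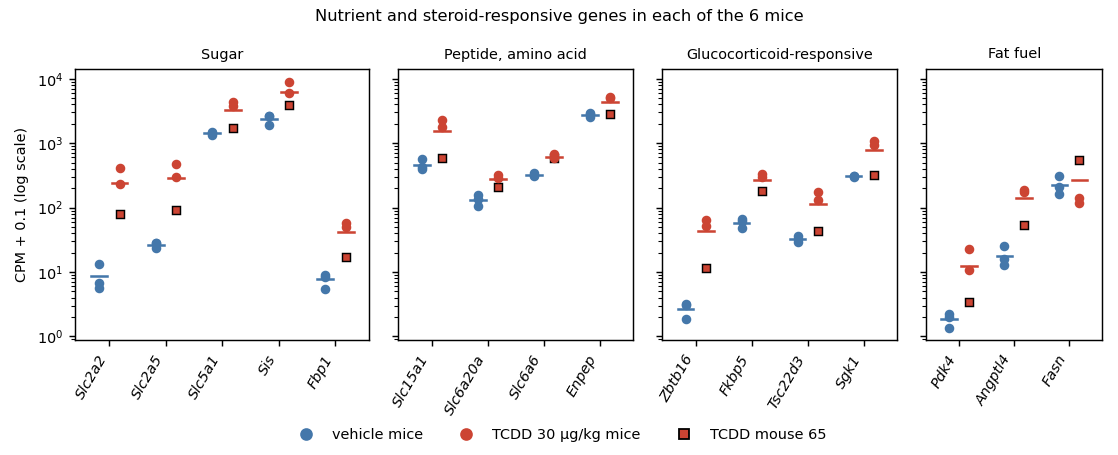
CPM plus 0.1 on a log axis for 16 genes of sugar, peptide and amino acid uptake, glucocorticoid response and fat metabolism in the 3 vehicle mice (blue) and 3 TCDD mice (red, mouse 65 as a square), with group means as lines. Mouse 65 is the lowest treated mouse for 15 of the genes and lies above all others for Fasn, at 546 CPM.

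Fat metabolism divided the treated mice. Of 22 genes of fat and cholesterol absorption, 2 were called higher (9.09%, against 9.4% of all genes tested called in either direction). They were the droplet coat gene *Plin2* (0.87) and *Fabp1* (1.74, lost without mouse 2, 4 or 67 and with index use in the fit). Without mouse 65, 4 were called higher. The summed level of these genes was 15800 to 16880 CPM in vehicle mice, 8395 CPM in mouse 65, and 28240 and 20120 CPM in mice 67 and 68. None of 13 genes of fatty acid synthesis was called by edgeR or DESeq2, and 6 had an unadjusted p under 0.05. *Fasn*, fatty acid synthase, was at 207, 161 and 313 CPM in vehicle mice and at 546, 117 and 139.9 CPM in treated mice. Without mouse 65, its log2 fold change moved from 0.24 to -0.85, and 5 of the 13 genes were called lower. Smooth muscle genes were also highest in mouse 65, and their part in its values was not tested.

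Of 21 genes of fatty acid oxidation and ketogenesis under PPARα, 6 were called higher and 1 lower (median 0.09). *Angptl4*, an inhibitor of lipoprotein lipase, rose from 15.6, 24.8 and 12.9 CPM to 54.1, 173 and 189 CPM (7.82-fold), and *Pdk4*, which shuts pyruvate out of oxidation, rose 6.95-fold. *Ppara* itself rose by 0.91 and *Acaa2* by 0.91, with little spread among the treated mice. *Acadl* fell by 0.64, a call lost without mouse 4 or 68, and most oxidation enzymes, *Cpt1a* among them, were not called. With index use in the fit 2 were called higher and 0 lower. Of 20 genes of sterol synthesis (median 0.33), 2 were called higher (10.0%, against 9.4% of all genes tested), among them *Stard4* (0.69, lost without mouse 67). Without mouse 65 the number was 7, and with index use in the fit 1.

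Of 10 genes of ileal bile acid handling, 4 were called higher and 2 lower. *Abcc2*, the apical exporter MRP2, rose from 91.4, 145 and 98.2 CPM to 304, 918 and 481 CPM (5.09-fold), and *Cyp27a1*, a sterol hydroxylase, from 13.4, 26.4 and 17.6 CPM to 70.3, 163 and 129 CPM (6.30-fold). *Abcb1a*, the exporter MDR1A, rose by 1.37. *Slc10a2*, the apical bile acid transporter, was at 355 CPM in mouse 65 and at 717 and 732 CPM in mice 67 and 68, against 314 to 385 CPM in vehicle mice, and its call (0.75) was kept only without mouse 65. *Fgf15*, the hormone through which the ileum restrains bile acid synthesis in liver, fell from 54.9, 69.5 and 47.9 CPM to 14.3, 1.39 and 2.04 CPM (9.47-fold). *Fabp6*, the cytosolic bile acid carrier, fell 1.92-fold, with mouse 65 at 1492 CPM and mice 67 and 68 at 680.2 and 474 CPM against 1489.8 to 1809.9 CPM in vehicle mice. Its call was lost without mouse 67 or 68. With index use in the fit, 2 of the 10 were called higher and 2 lower, and the median log2 fold change was -0.046 in place of 0.163.

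*Slc40a1*, which encodes ferroportin, the iron exporter, fell from 172, 128 and 183 CPM to 39.8, 20.6 and 35.2 CPM (5.05-fold, adjusted p = 3.65e-06). Of 11 genes of vitamin B12 and iron uptake, 1 more was called, *Cubn*, the B12 receptor cubilin (1.00), which lost its call with index use in the fit. DESeq2 and scaling by library size called 1 higher and 2 lower, as did the fits without mouse 2 or 3, and the fit without mouse 65 called 3 higher and 2 lower. Of 16 junction genes, *Cldn8* fell by 2.09 and *Cldn15* rose by 0.59, a call kept only without mouse 65 and lost with index use in the fit. *Abcc5* (1.73) was called among 9 further ABC transporters. The shares called were 18.2% of the vitamin B12 and iron genes, 12.5% of the junction genes and 11.1% of these transporters, against 9.4% of all genes tested.

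Of 18 antimicrobial and inflammatory effectors, 9 were called lower and 1 higher (median -0.99 against 0.02 over all genes). *Duox2*, the dual oxidase that releases hydrogen peroxide at the epithelial surface, fell from 1178, 734 and 1408 CPM to 220.4, 173 and 217 CPM (5.44-fold, adjusted p = 8.68e-06). Its maturation factor *Duoxa2* fell from 171, 106 and 207 CPM to between 11.8 and 15.4 CPM (11.5-fold). The 2 genes lie next to each other on chromosome 2, *Duox2* at 122279247 to 122298449 on the - strand and *Duoxa2* at 122298900 to 122302885 on the + strand. The treated mice were close together for both.

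*Nos2*, the inducible nitric oxide synthase, fell 2.07-fold and *Reg3g*, a lectin that kills Gram-positive bacteria, 2.42-fold from 5078 ± 1993 CPM. *Reg3b*, *Reg3a* and *Il18* fell by 0.94, 0.88 and 0.75, calls that were each lost without mouse 67 and, for *Reg3b*, mouse 4, and for *Il18*, mouse 2, 4 or 68. *Retnlb* (-3.61) and *Saa1* (-1.68) were called but lost the call without mouse 2, 4, 65 or 67. *Nlrp6*, an inflammasome sensor, rose by 0.60, a call lost without mouse 2, 4 or 65 and under scaling by library size. Paneth cell products *Lyz1*, *Ang4* and *Mmp7* were not called. Between 4 (without mouse 67) and 10 (without mouse 3) genes were called lower with a mouse left out, and 4 with index use in the fit or with the 6 mice alone.

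Of 23 interferon-stimulated genes, 2 were called lower (8.7%, against 9.4% of all genes tested called in either direction). *Zbp1*, a sensor of Z-form nucleic acids, fell from between 58.3 and 108 CPM to 31.9, 22.6 and 29.5 CPM, and *Ifit2* fell by 1.92 on the log2 scale. Of 8 genes of MHC class II presentation 1 (12.5%) was called lower, *H2-DMb1* (-0.69, lost without mouse 67). These counts were 7 and 5 under scaling by library size. With mouse 3 left out the first was 6, and with mouse 68 left out they were 5 and 6. None of 17 genes of intraepithelial T lymphocytes was called by edgeR (median -0.10, 0 called with any mouse left out, 1 with an unadjusted p under 0.05), DESeq2 called 1 lower, and their summed level was 395.1 to 471.1 CPM in vehicle mice and 291.4 to 475.7 CPM in treated mice.

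Of 10 genes of plasma cells and IgA transport, 5 were called lower and 0 higher (median -0.96). *Igha*, the IgA heavy chain constant region, fell from 1567, 1260.2 and 1166 CPM to 573, 262 and 605 CPM (2.77-fold, adjusted p = 0.00157). *Jchain*, which joins IgA dimers, fell 3.05-fold and *Igkc*, the kappa constant region, 2.87-fold, with all treated mice below all vehicle mice. *Mzb1*, a plasma cell chaperone, fell by 1.43. *Irf4* was called (-0.85) in the full set but in only 2 of the 6 fits without a mouse. *Pigr*, the epithelial IgA receptor, had a log2 fold change of -0.08, and *Ighm* one of 0.05. With index use in the fit 0 of the 10 were called (median -0.61), and 3 with the 6 mice alone.

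The variable segments, which belong to the same antibody transcripts as constant regions such as *Igha* and *Igkc*, were mostly lower too. They are therefore not a result independent of those genes. Of 160 kappa segments 66 had enough counts to be tested, and 18 of these were called lower and 0 higher (median -1.93), and of 183 heavy chain segments 77 were tested, with 17 lower and 0 higher (median -1.65). The 66 kappa segments summed to 254.3, 183.1 and 182.8 CPM in vehicle mice and 88.8, 33.9 and 83.5 CPM in treated mice. The segments are near-identical in places, and how reads that fit several were counted is not stated, so single segments are uncertain. Of each set, 2 segments had no count in the treated mice, and placing them at a floor of 3 counts over the group left the medians as they were. A median hardly depends on 2 extreme values, so this is no check on the other segments with low counts. Without mouse 67 the numbers called were 7 kappa and 6 heavy chain segments, and of the 143 segments in both sets 1 was called with index use in the fit. *Ighg2b*, an IgG constant region, fell from 45.5, 60.9 and 14.4 CPM to 4.51, 6.34 and 6.27 CPM.

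Proliferation genes were lower in mice 67 and 68 than in mouse 65. Of 22 genes of the cell cycle and DNA replication, 13 were called lower and 1 higher (median -0.64). *Ccnd1*, cyclin D1, was at 159.7, 154 and 198 CPM in vehicle mice and at 124, 41.7 and 61.1 CPM in mice 65, 67 and 68 (-1.17 ± 0.25 SE, adjusted p = 0.00225). *Ccnb1* and *Ccna2*, mitotic and S phase cyclins, fell by 1.07 and 0.94, calls that were lost without mouse 4 or 67. *Rrm2*, a subunit of ribonucleotide reductase, was higher at 0.64 (lost without mouse 2, 3, 67 or 68), and *Mki67* was not called (-0.54). The summed level was 827.2 to 1113 CPM in vehicle mice, 860.3 CPM in mouse 65 and 448.5 and 552 CPM in the other treated mice. From 2 genes (without mouse 4) to 17 (without mouse 65) were called lower with a mouse left out, and 0 with index use in the fit or with the 6 mice alone.

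Of 13 stem cell and Wnt genes, 3 were called lower (23.1%, against 9.4% of all genes tested called in either direction). *Lgr5*, the marker of crypt base stem cells, fell from 13.3, 10.8 and 18.8 CPM to 6.88, 2.40 and 4.88 CPM (3.01-fold). *Axin2*, a Wnt target, fell from 172, 178 and 174 CPM to 116, 83.8 and 84.6 CPM, and *Sox9* by 0.66, a call lost without mouse 2, 4, 67 or 68. *Olfm4* was not called (-1.01, adjusted p = 0.052), and without mouse 65 the number called lower was 6. With index use in the fit 1 was called lower and 1 higher.

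Of 13 enteroendocrine genes, 5 were called higher and 0 lower (median 0.56). *Chgb* and *Chga*, the chromogranins of hormone granules, rose from 39.7, 48.3 and 43.4 CPM to 104, 93.0 and 103 CPM and from 20.9, 27.0 and 22.3 CPM to 46.0, 52.9 and 51.5 CPM. The treated mice, mouse 65 included, were close together and did not overlap the vehicle mice. *Nts*, neurotensin, and *Pyy*, peptide YY, rose by 1.09 and 1.01, calls that were lost without mouse 4 or 68, and the call of *Neurod1* (0.88) was lost whichever mouse was left out. *Gcg*, *Gip* and *Sst* were not called. The count was 2 without mouse 4 or 68, and 1 with index use in the fit.

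Of 9 genes of tryptophan and serotonin metabolism, 4 were called higher and 0 lower, and 1 was called with index use in the fit. *Slc6a4*, the serotonin transporter, rose from 29.4, 37.6 and 31.1 CPM to 65.0, 80.4 and 81.2 CPM (2.31-fold, adjusted p = 6.43e-06). *Tph1*, which makes serotonin in enterochromaffin cells, rose by 1.02 (lost without mouse 4 or 68), *Afmid*, a kynurenine formamidase, by 0.94 and *Maoa*, which degrades serotonin, by 0.70. Among 9 goblet cell genes *Zg16* rose 1.57-fold (a call lost with index use in the fit and under scaling by library size) and *Muc13*, a transmembrane mucin, fell from 4190.0, 3527 and 4234 CPM to 1807, 2234 and 2656 CPM, while *Muc2* (0.46) was below the fold limit. The share of goblet cell genes called was 22.2%, against 9.4% of all genes tested. None of 5 tuft cell genes was called by edgeR over all 27 mice (median 0.81), and 4 had an unadjusted p under 0.05. DESeq2 called 2 of them higher, as did edgeR with the 6 mice alone or with no filter on low counts.

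Among the largest falls outside the lists, *B3galt5*, a galactosyltransferase, fell from 121, 57.9 and 273 CPM to 4.30, 5.34 and 10.6 CPM (22.5-fold, adjusted p = 6.12e-05). *Fut2*, the fucosyltransferase that displays blood group H antigen on the epithelium, fell from 40.3, 18.6 and 62.4 CPM to 4.73, 6.03 and 10.7 CPM, and *B3gnt7*, an N-acetylglucosaminyltransferase, fell 6.22-fold. In each of these genes the vehicle mice varied more than the treated mice and the groups did not overlap. *Plet1* fell 18.3-fold from 16.5 ± 8.50 CPM. *Dusp6*, the phosphatase that switches off ERK, fell from 189, 172 and 258 CPM to 36.1, 34.0 and 25.6 CPM (6.46-fold, adjusted p = 2.05e-06). *Plat*, tissue plasminogen activator, fell 5.33-fold and *Sprr2a2* 6.17-fold. *Slc6a14*, an amino acid transporter, was at 3.01, 3.71 and 40.5 CPM in treated mice against 48.1 to 162 CPM in vehicle mice, and lost its call without mouse 4, 65 or 67.

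Among the largest rises, *Prkag3*, a regulatory subunit of the energy sensor AMPK, rose from 0.715 ± 0.271 to 9.41 ± 5.23 CPM (adjusted p = 3.18e-06). It is the neighbour of *Cyp27a1* on chromosome 1 (*Prkag3* at 74738922 to 74749221, *Cyp27a1* at 74713574 to 74737892), on the other strand. *Foxq1*, a forkhead factor, rose from 1.34, 1.91 and 1.18 CPM to 3.51, 27.5 and 17.7 CPM. *Herpud1* (1.36, lost with index use in the fit) and *Trib3* (2.31) were the only ones of 21 genes of the unfolded protein response to be called, and the chaperone *Hspa5* had a log2 fold change of -0.08. Of 14 heat shock genes 2 were called lower, *Hspe1* and *Cacybp* (each lost without mouse 4, 67 or 68 and with index use in the fit), and of 19 immediate early genes *Egr1* fell by 1.19. The shares called were 9.52% (unfolded protein response), 14.3% (heat shock) and 5.26% (immediate early), against 9.4% of all genes tested.

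Several groups gave few or no calls. None of 13 transcription factors of regional identity was called by edgeR or DESeq2 (4 with an unadjusted p under 0.05), with *Hnf4a* at 1254, 1290 and 1306 CPM in vehicle mice and 1098, 1266 and 1366 CPM in treated mice. Of 82 cytosolic ribosomal protein genes 1 was called (*Rps27l*, -0.60, lost without mouse 4 or 67) and of 78 nuclear genes of oxidative phosphorylation 1 (*Ndufb6*, -0.74), with a median of -0.17 (8 called lower without mouse 65). The 18 transcripts of the mitochondrial genome had a median of 0.47 with none called by either tool (11 with an unadjusted p under 0.05), and summed to 18560 to 18940 CPM in vehicle mice and 30790, 23550 and 22060 CPM in treated mice. With 1 mouse left out, their median ranged from 0.20 to 0.58 and 0 to 1 of them were called higher. Smooth muscle genes had a median of 1.26 with none of 9 called by either tool or at an unadjusted p under 0.05, and without mouse 65 the median was -0.15. None of 9 fibroblast, endothelial, glial and neuronal genes and none of 10 B cell, macrophage and mast cell genes was called by either tool, and 3 and 0 had an unadjusted p under 0.05. Without mouse 65, 2 of the first 9 were called lower. Of the markers of erythrocytes, colon and pancreas, 3 of 9 could be tested, and *Car4* fell by 1.07.

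The 3 treated mice did not respond alike. Among the 908 genes called higher, mouse 65 was the lowest treated mouse for 617, mouse 67 for 130 and mouse 68 for 161. Among the 666 called lower, mouse 65 was the highest treated mouse for 427, mouse 67 for 66 and mouse 68 for 171. Without mouse 65, 1165 genes were called higher and 1343 lower, without mouse 67 527 and 351, and without mouse 68 724 and 519. Omitting a vehicle mouse mattered as well, and without mouse 4 there were 595 and 398. Of the 908 and 666 genes, 390 and 266 kept their call in all 6 fits that left out a mouse.

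Each treated mouse was also set against genes called without it. The same vehicle mice chose these genes and set the range, so the shares are in part built in and are not an independent check. Of 524 genes tested in mouse 67 and called higher in the fit without it, 97.5% lay above all vehicle mice in mouse 67, and of 719 in mouse 68, 95.4% did, with 96.0% of 351 and 94.0% of 518 lower genes below all vehicle mice. For mouse 65 the shares were 69.0% of 1152 higher and 58.4% of 1335 lower genes. Of all genes with a higher or lower mean in the fit without it, mouse 65 lay beyond the vehicle range on that side for 46.4% and 41.0%, mouse 67 for 59.4% and 61.3%, and mouse 68 for 56.4% and 57.3%. The median log2 difference of mouse 65 from vehicle in these genes was 0.43 and -0.25, against 1.02 and -0.88 in the fit of the other treated mice. *Ahrr* and *Cyp1b1* were higher in mouse 65 than in mice 67 and 68, and *Ugt1a7c* was level in the 3.

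**Figure D5:**
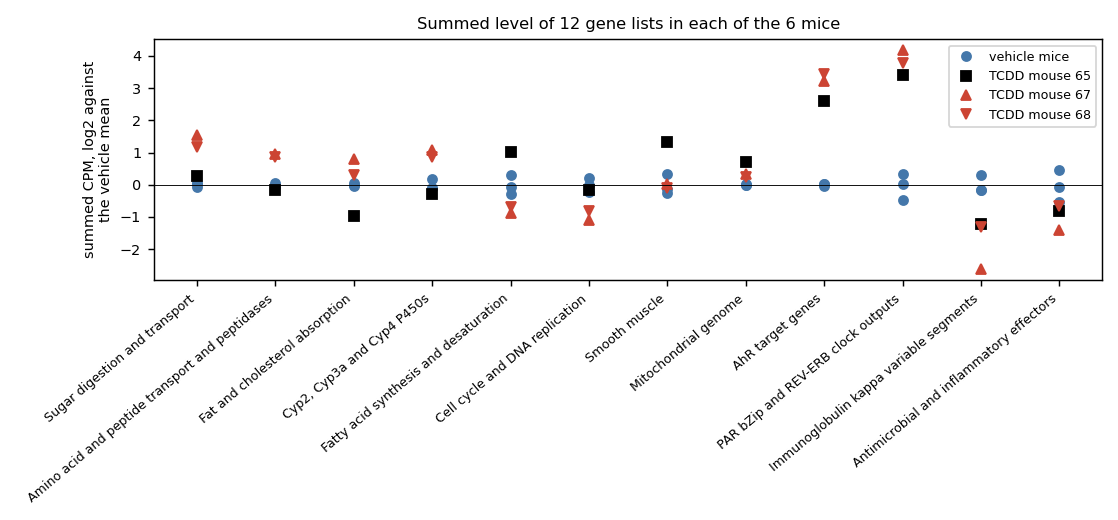
Summed CPM of 12 gene lists in each of the 6 mice, as log2 against the mean of the 3 vehicle mice (blue circles), with mouse 65 as black squares and mice 67 and 68 as red triangles. AhR targets, clock outputs and kappa segments each lie on the same side of the vehicle mean in the 3 treated mice, while mouse 65 lies apart from mice 67 and 68 for amino acid transport, fat absorption, fatty acid synthesis, P450s and smooth muscle, among others.

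Set against 10 µg/kg, the dose below, 33 genes (0.197%) were called higher at 30 µg/kg and 24 (0.143%) lower in the same fit. The 30 µg/kg mice are shared with the comparison to vehicle, in which 49 of the 57 genes were called in the same direction. *Agpat3*, an acyltransferase of phospholipid synthesis, was at 57.3, 63.0 and 63.3 CPM at 10 µg/kg and at 96.0, 121 and 125 CPM at 30 µg/kg (log2 difference 0.90 ± 0.12 SE, adjusted p = 0.000871), from 32.8 ± 4.94 CPM in vehicle mice. *Ahrr* was at 43.7, 39.1 and 31.2 CPM and then 88.9, 55.7 and 77.8 CPM (0.97, adjusted p = 0.000871). *Cyp1a1* was at 516, 529 and 647 CPM at 10 µg/kg, below all mice at 30 µg/kg (adjusted p = 0.0473). *Duoxa2* (-2.21) and *Dusp6* (-1.65) were lower again at 30 than at 10 µg/kg, and *Als2cl* (0.95) was higher.

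*Fbp1* was at 6.19, 11.0 and 11.3 CPM at 10 µg/kg, a range that included the vehicle mean of 7.58 CPM, and rose at 30 µg/kg (2.12, adjusted p = 0.0134). *Tkfc*, a triokinase of fructose metabolism, was at 171 to 209 CPM at 10 µg/kg against 193 ± 11.5 CPM in vehicle mice, and was called higher at 30 than at 10 µg/kg, with mouse 65 at 194 CPM and mice 67 and 68 at 773 and 638 CPM. *G6pc* was at 2.47 to 2.90 CPM at 10 µg/kg, and was also called higher at 30 than at 10 µg/kg. *Tkfc* and *G6pc* were named after their values were seen.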

How the data were processed

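RNA was extracted from scraped ileal epithelium of 27 mice in 9 groups of 3 and sequenced as total RNA. According to the submitters' processing notes, reads were checked with FastQC 0.11.3, trimmed with Trimmomatic 0.33, aligned to GRCm38 with TopHat2 2.1.0 and SAMtools 1.2.0 and counted per gene with HTSeq 0.6.1, and DESeq is also named. The deposited values used here are the authors' raw counts per gene, one table per mouse. Strand setting and the treatment of reads shared between genes are not given in the sources used here, so antisense, overlapping and near-identical genes are uncertain. Rows for reads without a gene were removed. The class without a feature held 45.38 to 49.21% of reads in the 6 mice. That share is taken over reads on genes, without a feature or ambiguous, and leaves out reads aligned to several places. Counts on genes were 13.14 to 14.63 M per mouse.

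Genes with low counts were removed with filterByExpr (minimum count 10, minimum total 15). The remaining 16741 genes were fitted in edgeR 4.0.16 (R 4.3.3) with TMM factors and the quasi-likelihood test over all 27 mice and 9 groups, and p-values were adjusted over all genes by Benjamini-Hochberg. A gene was called at an adjusted p of no more than 0.05 together with a fold change of 1.5 or more. Lists are described by counts and medians with no set test. Scripts were tested on simulated data. Alternatives were other scalings, filters and limits, DESeq2 1.42.0, the 6 mice alone, index use or clock score as a covariate, and fits without each mouse. Replicate numbers follow accession order and pair nothing.

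Named genes were the 15 largest rises and 15 largest falls among called genes without overlap and with a mean of at least 5 CPM in the higher group, up to 5 called members per list by adjusted p (or the 2 most abundant where none was called), 8 genes of AhR and bile acid biology, and the 5 smallest adjusted p-values of 30 against 10 µg/kg. Other genes named, such as list members further down or uncalled, were chosen after their values were seen. The lists were chosen with earlier results of these data known. Promoter windows are from RefSeq (GRCm38.p6). Figures were drawn with matplotlib 3.10.9 in Python 3.11.15. Some members of the lists are counted but not reported by name here.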

Additional observations from a re-analysis of the deposited data

How the results depend on the processing

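With TMM scaling 1574 genes were called, 908 higher and 666 lower. Upper-quartile scaling, no low-count filter, a mean CPM of at least 1 and DESeq2 gave totals of 1538, 1583, 1485 and 1572. Scaling by library size alone gave 604 higher and 1048 lower. The 6 mice fitted alone gave 667 (396 higher, 271 lower), with fewer mice to estimate the spread. No fold limit gave 2976 (1555 and 1421), and a test against a fold change of 1.5 gave 313 (208 and 105). Index use as a covariate gave 482 (302 and 180), and the clock score 12 (11 and 1). Index use separates these 6 mice exactly as treatment does, and its estimate rests on the 1 µg/kg mice. Leaving out 1 mouse gave 878 (without mouse 67) to 2508 (without mouse 65) calls, 527 to 1165 higher and 351 to 1343 lower. Without vehicle mouse 4 there were 993.

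Among the 150 named genes, the sign changed with the clock score for *Arntl* (0.205), *Ciart* (-0.223), *Csf1r* (-0.422), *Gzma* (0.588), *Hnf4a* (0.019), *Ighv1-55* (0.194), *Mcpt1* (0.560), *Muc13* (0.164), *Nfil3* (1.153), *Npas2* (0.459), *Nqo1* (-0.283), *Nr1d1* (-0.111), *Per1* (-0.035) and *Ptges3* (0.069). It changed with index use for *Col1a2* (0.778), *Col3a1* (0.511), *Dclk1* (-0.011) and *Sgk1* (-0.769), and with library size alone for *Nqo1* (-0.050). Leaving out a mouse gave log2 ranges that crossed 0 for *Csf1r* (-0.051 to 0.290), *Fasn* (-0.853 to 0.595), *Gzma* (-0.234 to 0.079), *Hnf4a* (-0.119 to 0.006), *Mcpt1* (-1.638 to 1.010), *Mylk* (-0.080 to 0.306), *Nqo1* (-0.086 to 0.172) and *Ptprc* (-0.245 to 0.001). *Arntl*, *Ciart*, *Npas2*, *Nr1d1* and *Per1* are themselves part of the clock score, so their values with it follow from how it was built. The causes of the other sign changes were not tested. Of the other named genes, 117 kept their sign but lost the call with the clock score and 63 with index use. The 117 include further genes of the score, *Dbp* and *Per3* among them, to which the same limit applies. No paired analysis was possible because the replicate numbers follow accession order only.

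With 13.14 to 14.63 M counts per mouse, genes below the filter, *Cyp1a2* among them, were not tested.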

Other observations

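Genes that differed between 30 and 10 µg/kg but stood outside the lists included 3 neighbouring gasdermin C genes, named here after their values were seen. *Gsdmc4* was at 37.0, 27.5 and 25.8 CPM at 10 µg/kg and at 12.6, 5.03 and 3.58 CPM at 30 µg/kg, with a vehicle mean of 30.1 ± 7.47 CPM (SD, n = 3). *Gsdmc2* and *Gsdmc3* fell by 1.62 and 1.96 on the log2 scale between these doses (edgeR adjusted p = 0.0219 and 0.0196). The 3 genes are close in sequence, so reads may be divided between them. Mouse 65 was the highest of the treated mice for each.

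*Hk2*, hexokinase 2, was at 233, 386 and 234 CPM at 10 µg/kg and at 150.7, 60.2 and 78.6 CPM at 30 µg/kg, from 419 ± 110.1 CPM in vehicle mice. *Mertk*, a receptor for dying cells, was at 193, 189 and 214 CPM at 10 µg/kg and at 207, 449.7 and 323 CPM at 30 µg/kg, from 122.7 ± 1.54 CPM in vehicle mice. *Socs1*, an inhibitor of cytokine signalling, was at 11.3, 15.2 and 12.6 CPM at 10 µg/kg and at 4.66, 4.72 and 5.54 CPM at 30 µg/kg.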
